A study of Mus musculus with 3 samples.

Results

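Krt7, Krt8, Krt18, Krt19 and Vim encode the keratins of simple epithelia and vimentin, all subunits of cytoplasmic intermediate filaments. These 5 genes were picked by their Entrez numbers from 17997 genes listed in at least 1 of 3 RNA-seq libraries, with earlier results of these data known. The study introduced Lef1, whose product carries the Wnt signal of beta-catenin to DNA, into 46C mouse embryonic stem cells (strain 129), grown with serum and leukemia inhibitory factor on gelatin. One culture received the empty vector PB and was collected at passage 2. The others received PB-Lef1 and were collected at passages 2 and 5. The libraries are named by insert and passage, as vector P2 (empty vector P2 in plots), Lef1 P2 and Lef1 P5. The sources used here do not say whether the transfected cells were a clone or a pool.

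Keratin filaments are built from equal parts of a type I and a type II chain, and a chain without a partner is unstable. Krt8 (type II) and Krt18 (type I) are the first keratins of the mouse embryo and appear in trophectoderm and in extraembryonic endoderm. Krt7 (type II) and Krt19 (type I) are further chains of simple epithelia. Vimentin is a type III protein that forms filaments by itself and is typical of mesenchymal and many cultured cells.

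Each group has n = 1 library, so no test between groups was made, and the comparisons describe these libraries. The expected counts, which are the authors' estimated reads per gene, summed to between 9170554 and 9380813 per library. Levels are in FPKM, reads per kilobase scaled to each library's total. Values in parentheses after a level or a fold are 95% counting intervals, exact for Poisson counts or for the ratio of a pair of counts. They leave out the difference between cultures, and amplified reads are not independent molecules. Lef1 itself was at 1.49, 135 and 214 FPKM in vector P2, Lef1 P2 and Lef1 P5, so its levels follow the labels. All 8 markers of embryonic stem cells reached 1 FPKM, with a summed level of 6320, 5559 and 6186 FPKM in that order. None was called as deposited (the call rule is given with the comparisons). Between Lef1 P2 and vector P2, 8.31% of all tested genes were called. In that comparison 6 of the 8 had log2 ratios below 0 and 2 above, with a median of -0.50 relative to all genes. Pou5f1 was at 1135, 704 and 1062 FPKM and Nanog at 160, 167 and 176 FPKM. With median-of-ratios and TMM scaling, Utf1 was called lower in Lef1 P2 than in vector P2.

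The levels of the keratins and vimentin differed most in Lef1 P2, where the keratins were highest and Vim lowest. Krt8 (Entrez gene 16691) was at 8.55 FPKM (7.18 to 10.1) in vector P2. Lef1 P2 had 61.3 FPKM (57.6 to 65.3) of Krt8 and Lef1 P5 had 19.2 FPKM (17.2 to 21.5). Its partner Krt18 (Entrez gene 16668) was at 11.2 FPKM (9.43 to 13.2), 34.8 FPKM (31.6 to 38.3) and 12.9 FPKM (11.0 to 15.0) in the same order. Both were highest in Lef1 P2, and for Krt18 the intervals of vector P2 and Lef1 P5 overlapped. Krt19 (Entrez gene 16669), a short type I keratin, was at 7.09 FPKM (5.74 to 8.67), 25.8 FPKM (23.1 to 28.7) and 9.08 FPKM (7.55 to 10.8). Krt7 (Entrez gene 110310) was at 1.68 FPKM (1.08 to 2.50), 7.01 FPKM (5.70 to 8.53) and 0.83 FPKM (0.429 to 1.45). Krt19 and Krt7 were likewise highest in Lef1 P2, and their intervals in the other libraries overlapped. Vim (Entrez gene 22352) was at 98.3 FPKM (93.6 to 103) in vector P2. Lef1 P2 had 54.1 FPKM (50.5 to 57.8) of Vim and Lef1 P5 had 143 FPKM (137 to 149). It was lowest in Lef1 P2 and highest in Lef1 P5, and none of its intervals overlapped.

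**Figure D1:**
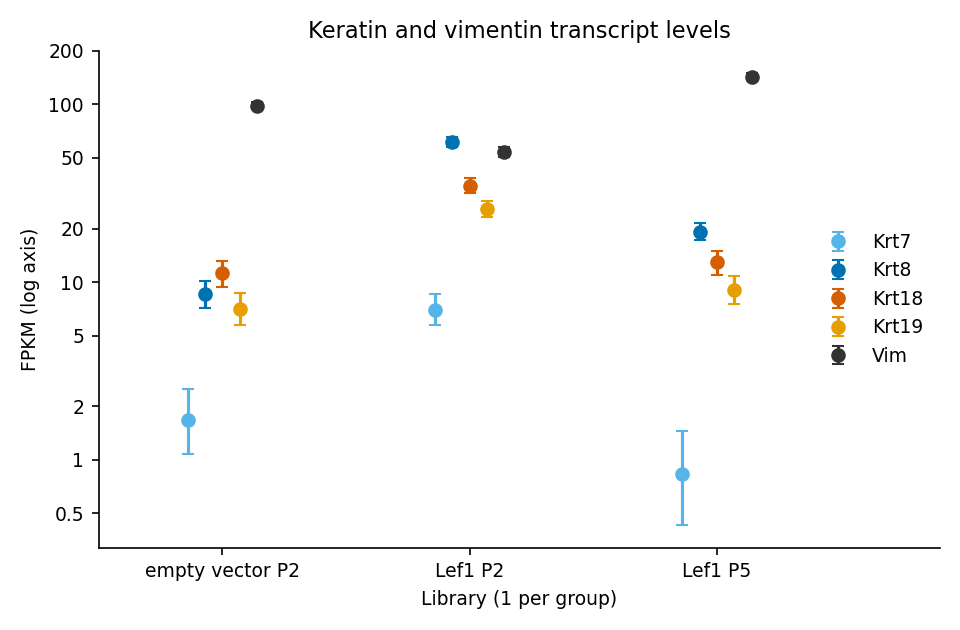
Levels of the 5 genes in each library, in FPKM on a log axis, with 1 point per library and bars for the 95% counting interval. Krt8 lies above Vim in Lef1 P2 (61.3 against 54.1 FPKM), while Vim lies far above every keratin in the other libraries.

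The reads behind these values ranged from 12 (Krt7, Lef1 P5) to 2393 (Vim, Lef1 P5). The expected counts of all 5 genes were whole numbers in all 3 libraries, and each gene had 1 length throughout, from 1400 bases (Krt18) to 1834 bases (Vim). A fold between libraries is therefore close to the fold of their library-scaled reads.

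Promoters were compared because the keratins moved together and Vim did not. RefSeq promoters of GRCm38.p6, which run from 250 bases before the annotated start to 50 after it, were found for 4 of the 5 genes. The letters are those of the reference and not of these cells. Capitals mark matches, on either strand, to the TCF/LEF motif (CTTTGAA or else CTTTGAT or else CTTTGTA or else CTTTGTT), the GATA motif (AGATAA or else TGATAA), the AP-1 motif (TGANTCA), the SP/KLF motif (GGGCGG) and the TATA box (TATAAA).
Krt8 (GRCm38.p6 chr15:102004293-102004592, minus strand): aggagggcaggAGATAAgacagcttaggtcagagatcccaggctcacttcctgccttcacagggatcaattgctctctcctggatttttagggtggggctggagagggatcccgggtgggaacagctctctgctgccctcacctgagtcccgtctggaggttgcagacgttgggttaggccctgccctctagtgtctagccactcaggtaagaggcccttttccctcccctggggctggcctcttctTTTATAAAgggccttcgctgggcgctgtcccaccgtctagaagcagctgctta
Krt18 (GRCm38.p6 chr15:102027966-102028265, plus strand): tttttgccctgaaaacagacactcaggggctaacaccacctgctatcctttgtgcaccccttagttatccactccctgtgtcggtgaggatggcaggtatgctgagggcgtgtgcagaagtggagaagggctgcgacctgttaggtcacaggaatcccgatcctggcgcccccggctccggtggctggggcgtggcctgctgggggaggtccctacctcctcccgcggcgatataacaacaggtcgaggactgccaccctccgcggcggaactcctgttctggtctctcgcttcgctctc
Krt7 (GRCm38.p6 chr15:101412153-101412452, plus strand): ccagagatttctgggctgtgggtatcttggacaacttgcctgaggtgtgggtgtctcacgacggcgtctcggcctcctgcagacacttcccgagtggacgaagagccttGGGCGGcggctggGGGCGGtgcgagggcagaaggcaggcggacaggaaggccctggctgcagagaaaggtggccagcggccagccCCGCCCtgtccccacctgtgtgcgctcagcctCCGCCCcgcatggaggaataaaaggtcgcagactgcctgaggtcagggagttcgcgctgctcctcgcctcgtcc
Vim (GRCm38.p6 chr2:13574061-13574360, plus strand): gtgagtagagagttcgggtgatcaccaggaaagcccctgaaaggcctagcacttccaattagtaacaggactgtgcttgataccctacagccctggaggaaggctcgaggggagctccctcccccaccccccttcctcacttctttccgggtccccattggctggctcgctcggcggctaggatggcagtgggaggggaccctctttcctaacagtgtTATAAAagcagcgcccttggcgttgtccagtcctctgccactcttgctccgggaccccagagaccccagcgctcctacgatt

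None of the 4 sequences holds a TCF/LEF match, which 16.9% of the 32851 promoters of the table do, or an AP-1 match (7.81% of the table). The Krt8 sequence holds 1 GATA match, as do 18.6% of promoters, and the other 3 sequences hold 0. Krt7 has 4 SP/KLF matches, a motif found in 35.7% of promoters. Vim has a TATA box match beginning 32 bases before the start. In Krt8 a pair of TATA box matches, 1 on each strand, overlap each other at the annotated start, and 13.6% of promoters hold this motif. Krt18 has no match to any of the 5 motif families, and the GC content of the 4 sequences ran from 58.0% (Krt8) to 66.3% (Krt7). These are matches of letters in this window only.

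The comparison of Lef1 P2 with vector P2 was made at matched passage. Calls required that log2((x + 1)/(y + 1)) of the FPKM values be at least 1 in size, with at least 3 FPKM and 20 expected reads in the higher library. All 4 keratins were called higher and Vim was not called. Over all 10651 genes that met both minimum levels, 8.31% were called, 6.49% higher and 1.82% lower. Since the genes were chosen with these values known, nothing is read from that contrast. Krt8 was 7.17-fold higher (6.0 to 8.64), Krt7 4.17-fold (2.65 to 6.82), Krt19 3.63-fold (2.89 to 4.61) and Krt18 3.10-fold (2.56 to 3.78). By its log2 ratio Krt8 ranked 33 from the highest among the tested genes, Krt19 167, Krt7 218 and Krt18 231. Vim was at 0.550 times the empty-vector level (0.506 to 0.597).

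The log2 ratios on the FPKM + 1 scale were 2.71 for Krt8, 1.73 for Krt19, 1.58 for Krt7, 1.55 for Krt18 and -0.85 for Vim, with a median of 1.58. The median of all 12894 genes at 1 FPKM or more in some library was 0.11. It was -0.03 with median-of-ratios scaling and -0.02 with TMM scaling (trimmed mean of M values), and 78.1% of all calls were higher as deposited against 62.3% and 62.5%. Relative to the median of all genes, the ratios were 2.59, 1.61, 1.47, 1.44 and -0.97. The keratins were called higher under both scalings, and Vim, at -1.01 under each, was then called lower. Krt7 was at 0.85 with a pseudocount of 5 FPKM and no longer called.

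Markers of extraembryonic endoderm, in which simple keratins are normally made, moved in the same direction as the keratins from vector P2 to Lef1 P2. Of 16 listed markers, 14 were in the tables. All 14 were called higher in Lef1 P2 than in vector P2, as were 6.49% of all tested genes. In Lef1 P5 against vector P2, 9 of the 14 were called higher, beside 1.40% of all tested genes, and of the keratins Krt8 alone. The summed level of the markers was 183 FPKM in vector P2, 1895 FPKM in Lef1 P2 and 503 FPKM in Lef1 P5. Gata4, an endoderm transcription factor gene, was at 2.82, 66.0 and 16.2 FPKM. Afp and Ttr, which encode secreted proteins of visceral endoderm, were listed in none of the libraries. Their part in the keratin levels was not tested. In bulk RNA, more cells of a type and more RNA per cell cannot be told apart.

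Trophoblast, another source of these keratins, showed less in its markers. Of 11 markers 8 were in the tables and 5 reached 1 FPKM, with summed levels of 21.6, 25.3 and 18.8 FPKM. Cdx2, the factor that specifies trophectoderm, was at 0.16, 1.05 and 0.20 FPKM, and Elf5, Tpbpa and Prl3d1 were listed in no library. Gata2, at 0.68, 5.01 and 2.76 FPKM, was the only member called, higher in Lef1 P2 than in vector P2. Of all tested genes 6.49% were called higher there. Cdx2 and Eomes lay under 3 FPKM throughout and could not be called. In that comparison Gata2 was 7.37-fold higher (4.60 to 12.4), and Cdx2 6.56-fold (1.95 to 34.5) on 3 and 20 reads. Of the 5 markers, 3 had log2 ratios above 0 in that comparison and 2 below. In Lef1 P5 Gata2 was at 4.06-fold the vector P2 level (2.47 to 6.98) but under 3 FPKM. With CPM, which does not divide by length, it was called higher in Lef1 P5 than in vector P2 as well. Of 9 markers of fibroblasts and feeder cells, which are rich in Vim, 7 were in the tables and summed to 20.2, 15.9 and 10.3 FPKM. Col3a1 was at 0 in vector P2 and Lef1 P2 and at 0.02 FPKM in Lef1 P5, the library with the highest Vim. Thy1, lower in Lef1 P5 (7.21 FPKM) than in vector P2 (15.7 FPKM), was the only fibroblast marker called, and not with median-of-ratios scaling. Of all tested genes 1.28% were called lower in that comparison. Col1a1 and Pdgfrb lay under 3 FPKM in all libraries and could not be called. With CPM, Thy1, Col1a1 and Pdgfrb were called lower in Lef1 P5 than in vector P2. Pdgfrb was then also called lower in Lef1 P5 than in Lef1 P2. The part of either cell type in the levels was not tested.

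Lef1 P5 differs from vector P2 by the introduced gene and by passage, which cannot be told apart here. Of the 5 genes Krt8 alone was called, at 2.25-fold the empty-vector level (1.83 to 2.77). The background was 2.69% called, 1.40% higher and 1.28% lower of 10121 tested genes, and nothing is read from it here either. Krt18 was at 1.15-fold (0.911 to 1.45) and Krt19 at 1.28-fold (0.972 to 1.69), both with intervals that include no difference. Krt7, at 0.494-fold (0.225 to 1.03), lay under 3 FPKM in these libraries, and its interval also includes no difference. Vim was 1.46-fold higher in Lef1 P5 (1.37 to 1.55), with a log2 ratio of 0.54 that was not called. The call of Krt8 rests on a log2 ratio of 1.08, close to the threshold, and with a pseudocount of 5 FPKM it was 0.84 and not called.

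Between the Lef1 libraries all 5 genes were called, with the 4 keratins lower and Vim higher in Lef1 P5. These libraries differ by passage and in the level of Lef1 (135 and 214 FPKM), which cannot be told apart here. The background was 8.74% called, 6.86% lower and 1.88% higher of 10593 tested genes. This comparison shares the Lef1 P2 library with the first, so the same values of that library enter both. Lef1 P2 had 8.45 times the Krt7 level of Lef1 P5 (4.63 to 16.9), 3.19 times that of Krt8 (2.81 to 3.63), 2.84 times that of Krt19 (2.30 to 3.51) and 2.70 times that of Krt18 (2.25 to 3.25). The Krt7 value rests on 12 reads in Lef1 P5. Vim was 2.65-fold higher in Lef1 P5 (2.45 to 2.86) and ranked 57 from the highest by its log2 ratio of 1.39. The median of all genes was -0.17 as deposited, 0.01 with median-of-ratios scaling and -0.01 with TMM scaling. The share of calls that were higher was 21.5%, 45.8% and 43.4% in that order. Relative to the median of all genes the log2 ratios were -1.96 for Krt7, -1.45 for Krt8, -1.24 for Krt19, -1.20 for Krt18 and 1.56 for Vim, and all 5 were called under both scalings.

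**Figure D2:**
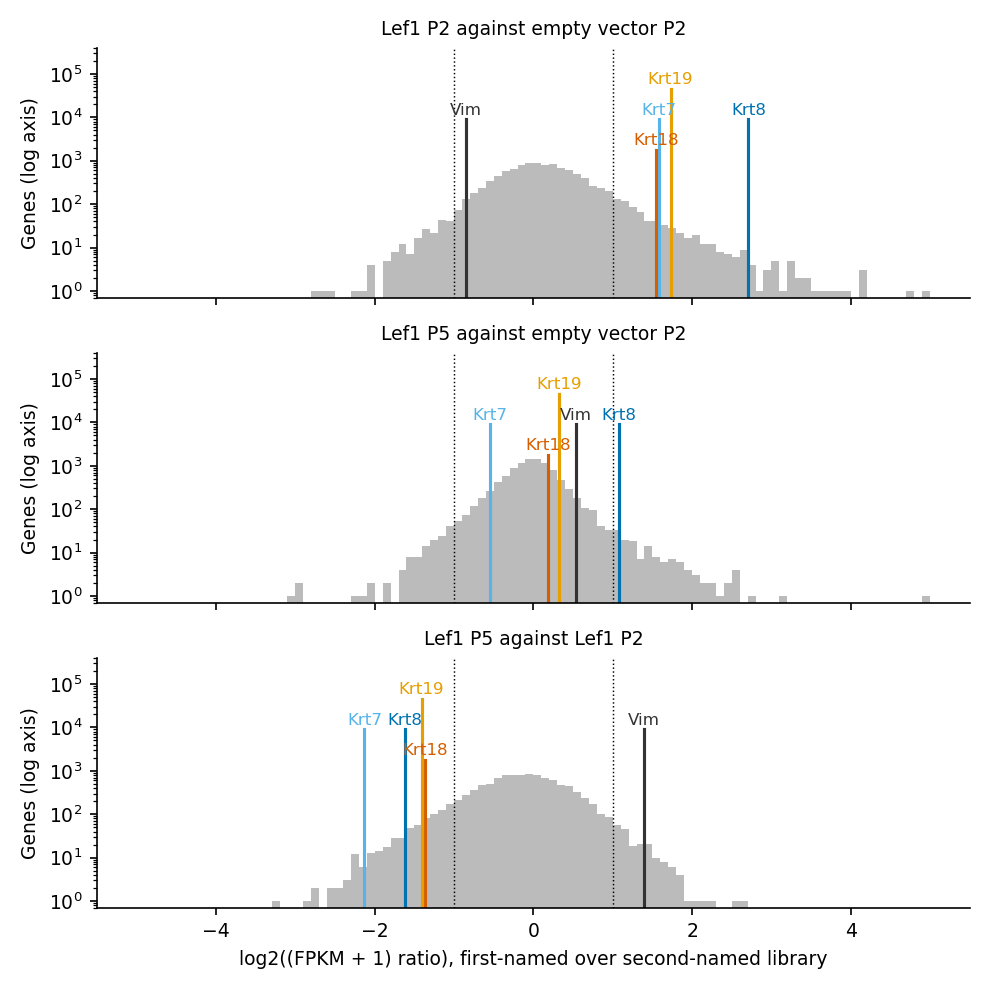
Histograms of the log2 ratio of FPKM + 1 for all genes that met the minimum levels in each comparison (gene numbers on a log axis), with vertical lines for the 5 genes and dotted lines at the threshold of 1. In the comparison of Lef1 P2 with vector P2 the keratins lie from 1.55 to 2.71 and Vim at -0.85. Ratios beyond 5 are drawn at the edge, and Krt7 in the comparison of Lef1 P5 with vector P2 is drawn although it did not meet the minimum of 3 FPKM.

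The order of the levels changed between libraries. Levels are per length, so a comparison between genes also rests on the listed lengths. In vector P2 the order was Vim, Krt18, Krt8, Krt19 and Krt7. Krt18 was at 1.31 times Krt8 (1.03 to 1.67), and Krt19 at 0.829 times Krt8 (0.632 to 1.08), an interval that includes equal levels. In Lef1 P2 Krt8 came first, and Vim was at 0.881 times Krt8 (0.804 to 0.966). Krt18, Krt19 and Krt7 followed, with Krt18 at 1.35 times Krt19 (1.17 to 1.56). In Lef1 P5 Vim was first again, at 7.45 times Krt8 (6.62 to 8.40), with Krt18, Krt19 and Krt7 after Krt8.

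The balance between transcripts of partner chains changed along with the levels, and protein was not measured. Krt8 was at 0.762 times Krt18 (0.598 to 0.971) in vector P2, 1.76 times (1.57 to 1.98) at passage 2 with Lef1 and 1.49 times (1.23 to 1.81) at passage 5. Per length, Krt18 thus exceeded Krt8 in vector P2 and the reverse held in both Lef1 libraries, by more than counting error. In vector P2 the reads were 138 for Krt8 and 139 for Krt18, on lengths of 1805 and 1400 bases. The excess of Krt18 there therefore comes from the lengths, whose error the intervals leave out. Summed over both genes of a type, type II transcripts (Krt7 and Krt8) were at 10.2, 68.4 and 20 FPKM. Type I transcripts (Krt18 and Krt19) were at 18.3, 60.6 and 22 FPKM. The type II sum was 0.559, 1.13 and 0.912 times the type I sum in the 3 libraries. Over all 15 type II and 17 type I keratins in the tables, which adds Krt42 and Krt17 to the type I side, the ratio was 0.298, 0.947 and 0.515. On both counts the sums of the types were closer to each other in the Lef1 libraries than in vector P2, while the size of the ratio depends on the genes summed. Within the types, Krt18 and Krt19 kept similar proportions, with Krt18 at 1.58 (1.21 to 2.08), 1.35 (1.17 to 1.56) and 1.42 (1.12 to 1.81) times Krt19. Krt8 was at 5.09 (3.28 to 8.21), 8.75 (7.11 to 10.9) and 23.2 (13.1 to 45.3) times Krt7. The 4 keratins together were at 28.5, 129 and 42.0 FPKM, and Vim was at 3.45, 0.419 and 3.41 times that sum.

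Among the 45 cytoplasmic intermediate filament genes listed in some library, the 5 genes made up 70.3%, 69.5% and 75.1% of the summed FPKM. The 4 keratins were 15.8%, 48.9% and 17.0% of this sum, and Vim was 54.5%, 20.5% and 58.0%. The whole sum was 181, 263 and 247 FPKM.

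**Figure D3:**
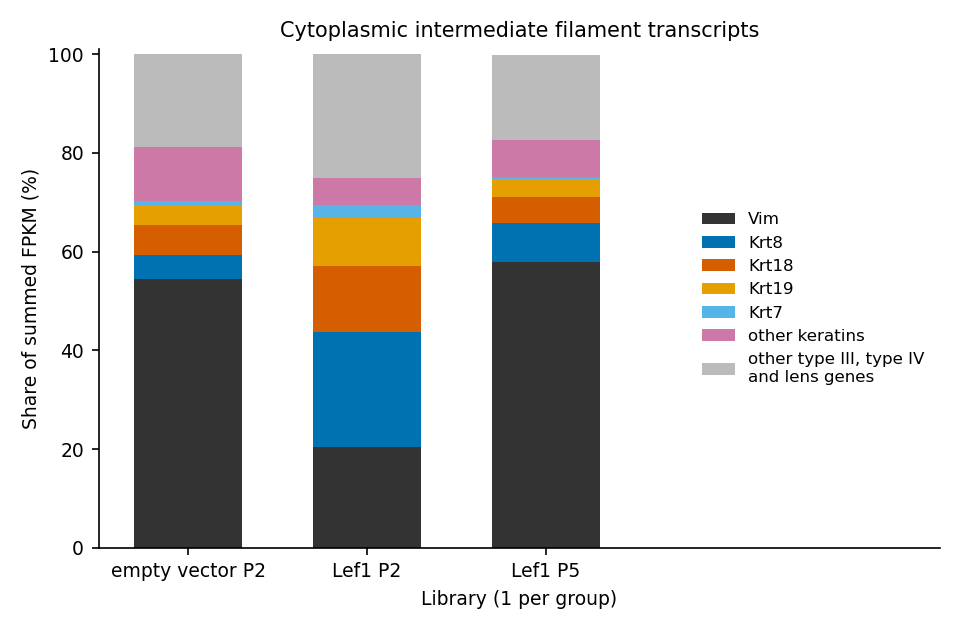
Share of the summed FPKM of 45 cytoplasmic intermediate filament genes taken by each of the 5 genes, by other keratins and by the remaining genes of types III and IV and the lens, in each library. Vim takes 20.5% in Lef1 P2 and over 50% in the other libraries (54.5% and 58.0%).

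Of the 49 other keratin genes 28 were listed in some library, and 4 reached 1 FPKM. Krt42, a type I keratin, was the only one of these called, at 11.3 FPKM in vector P2, 3.38 FPKM in Lef1 P2 and 8.49 FPKM in Lef1 P5. It was called lower in Lef1 P2 than in vector P2, the reverse of the simple-epithelial keratins, and higher in Lef1 P5 than in Lef1 P2. Of all tested genes 1.82% and 1.88% were called in these directions, in that order. Krt10 and Krt23 lay under 3 FPKM throughout and could not be called. Krt17, a type I keratin of basal and stressed epithelia, was at 5.51, 6.38 and 5.77 FPKM and was not called. Krt5 and Krt14, the pair of basal stratified epithelium, were below 1 FPKM throughout. The summed level of the other keratins was 19.7, 14.3 and 18.5 FPKM, against 28.5, 129 and 42.0 FPKM for the 4 simple-epithelial keratins.

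Krt8 and Krt18 are next to each other in the order of protein-coding genes on chromosome 15 in GRCm38, although most type I keratins lie on chromosome 11. Krt7 is on chromosome 15 as well, Krt19 on chromosome 11 and Vim on chromosome 2. The 5 nearest protein-coding genes on each side of the 5 genes comprise 40 different genes beside the 5, a set chosen after the values were seen. Of these 21 are keratins, and 19 of the 21 were under 1 FPKM in all libraries. Eif4b, a translation initiation factor gene that follows Krt18, was at 280, 271 and 264 FPKM. Of the 40 neighbours 1 was called higher in Lef1 P2 than in vector P2 and 2 were called lower, beside 6.49% and 1.82% of all tested genes. The 19 under 1 FPKM could not be called, nor could others that lay under 3 FPKM in all libraries, such as Pter, Trdmt1 and St8sia6. The shares of all tested genes cover only genes that met the minimum levels. The one called higher was Cubn, an endocytic receptor gene near Vim that is also on the endoderm marker list (2.68 and 33.0 FPKM), and those called lower were Rsu1, also near Vim (44.6 and 16.6 FPKM), and Krt42.

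The remaining intermediate filament genes, 15 in all with the lamins, did not follow a single direction. Of 12 at 1 FPKM or more, 5 were called higher and 1 lower in Lef1 P2 than in vector P2, and 6 were not called. Of all tested genes 6.49% were called higher and 1.82% lower. The median log2 ratio of the 12 was 0.15 above that of all genes. Des, the type III filament gene of muscle, was at 4.39 FPKM in vector P2, 13.8 FPKM in Lef1 P2 and 2.16 FPKM in Lef1 P5. Prph, the type III filament gene of peripheral neurons, was at 2.64, 7.89 and 2.58 FPKM. Both were called higher in Lef1 P2 than in either other library, unlike the type III gene Vim. The neurofilament genes Nefl (3.16, 23.8 and 14.5 FPKM) and Nefm (0.27, 3.56 and 2.67 FPKM) were also called higher in Lef1 P2 than in vector P2. Nefm rests on 8 reads in vector P2. The neural progenitor filament gene Nes was just past the threshold (2.20, 5.50 and 3.77 FPKM; log2 ratio 1.02) and was not called with median-of-ratios or TMM scaling. Ina, the type IV neuronal internexin gene, was called lower, at 9.05 and 2.32 FPKM. In Lef1 P5 against vector P2 Nefl was called higher and 0 genes lower, beside 1.40% and 1.28% of all tested genes. Between the Lef1 libraries Des and Prph were called lower and the heavy neurofilament gene Nefh higher in Lef1 P5. Of all tested genes 6.86% were called lower there and 1.88% higher. The lamin genes Lmna, Lmnb1 and Lmnb2 were not called in any comparison, except that Lmnb2 (22.8 and 43.0 FPKM) was called higher in Lef1 P5 than in Lef1 P2 with median-of-ratios and TMM scaling.

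The products of desmosome and cytolinker genes anchor keratin filaments to junctions and to the rest of the cytoskeleton. Of 19 listed, 16 reached 1 FPKM, and some of these lay under 3 FPKM throughout and could not be called. In Lef1 P2 against vector P2 their median was 0.15 above all genes. There 2 were called higher and 0 lower, beside 6.49% and 1.82% of all tested genes. Those called were the desmosomal cadherin gene Dsg2 (10.6 and 23.5 FPKM) and the giant linker gene Dst (27.1 and 55.4 FPKM), with log2 ratios of 1.08 and 1.01. Neither was called with median-of-ratios or TMM scaling, and Perp, a desmosome component gene, was then called lower. With CPM, which does not divide by length, Dsg2, Ppl and the desmocollin gene Dsc2 were called higher. Dsc2, at 0.55, 2.88 and 0.85 FPKM, was 5.24-fold higher in Lef1 P2 than in vector P2 (3.30 to 8.68) but under 3 FPKM. The desmoplakin gene Dsp, whose product binds keratins directly, was at 3.91, 5.38 and 2.02 FPKM, and the plectin gene Plec at 17.3, 17.4 and 16.2 FPKM. Against vector P2 none of the 16 was called in Lef1 P5, where 2.69% of all tested genes were. Dsp and the periplakin gene Ppl (3.47 and 1.09 FPKM) were called lower in Lef1 P5 than in Lef1 P2 as deposited and not with either scaling. As deposited 6.86% of all tested genes were called lower in that comparison. With CPM 5 genes were called lower there, namely Dsp, Ppl, Dsc2, the envoplakin gene Evpl and the integrin gene Itgb4. Evpl was at 0.99, 2.13 and 0.52 FPKM and Itgb4, of hemidesmosomes, at 2.58, 4.46 and 1.93 FPKM, both highest in Lef1 P2 as the keratins were.

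The list for filament assembly, turnover and phosphorylation has 18 genes, 17 of them at 1 FPKM or more. In Lef1 P2 against vector P2, 1 was called higher and 1 lower, beside 6.49% and 1.82% of all tested genes. The small heat-shock genes Hspb1 and Cryab, whose products bind intermediate filaments, went in opposite directions. Hspb1 was at 828 FPKM in vector P2, 334 FPKM in Lef1 P2 and 734 FPKM in Lef1 P5, lowest where Vim was lowest. Cryab was at 7.21, 19.2 and 5.76 FPKM, highest where the keratins were highest. Dnajb6, a chaperone that binds Krt18, was at 95.6, 71.5 and 111 FPKM and was not called. Between the Lef1 libraries Hspb1 was called higher and Cryab lower in Lef1 P5, beside 1.88% and 6.86% of all tested genes. None of the 17 was called between Lef1 P5 and vector P2, where 2.69% of all tested genes were. The calls of Hspb1 and Cryab held with both scalings.

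Epithelial and mesenchymal genes were read beside the keratins and Vim. Of 25 epithelial genes at 1 FPKM or more, 2 were called higher in Lef1 P2 than in vector P2, 0 lower and 23 not. Of all tested genes 6.49% were called higher and 1.82% lower. The epithelial median was 0.32 above all genes. Elf3, an epithelial ETS factor gene, was at 13.3, 58.5 and 20.5 FPKM, an order of libraries that matches that of Krt8. The tight-junction gene Cldn7 was at 11.3, 23.9 and 8.22 FPKM and was not called in Lef1 P2 with median-of-ratios or TMM scaling. The epithelial cadherin gene Cdh1 was at 81.6, 78.8 and 80.5 FPKM and the adhesion molecule gene Epcam at 33.0, 36.1 and 32.7 FPKM, so neither differed where the keratins did. Of the 25 genes, 19 had log2 ratios above 0 in Lef1 P2 against vector P2 and 6 below, where the median of all genes was 0.11. In Lef1 P5 the splicing regulator gene Esrp2 was the one epithelial gene called against vector P2, at 6.31 and 2.31 FPKM. Of all tested genes 1.40% were called higher in that comparison. Between the Lef1 libraries Grhl2, an epithelial transcription factor gene, was called higher in Lef1 P5 (3.25 and 8.86 FPKM). Elf3, Cldn7 and the tight-junction gene Marveld2 (3.40 and 1.03 FPKM) were called lower, Marveld2 not with either scaling. Between these libraries 1.88% of all tested genes were called higher and 6.86% lower. With CPM, Marveld2 and Esrp1 (8.66 and 17.6 FPKM in vector P2 and Lef1 P2) were also called higher in Lef1 P2 than in vector P2.

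For 9 mesenchymal genes at 1 FPKM or more, the median was -0.24 relative to all genes in Lef1 P2 against vector P2. Cdh2, Cdh11, Tagln and Col1a1 lay under 3 FPKM in all libraries and could not be called. Of the others, 2 were called higher and 0 lower in that comparison, beside 6.49% and 1.82% of all tested genes. They were the transcription factor genes Snai1 (0.84 and 8.01 FPKM) and Twist1 (1.35 and 4.01 FPKM), the latter not called with median-of-ratios or TMM scaling. Both were highest in Lef1 P2, where Vim was lowest, and Snai1 was also called higher in Lef1 P5 (4.71 FPKM), where Vim was highest, than in vector P2. Between the Lef1 libraries Twist1 was called lower in Lef1 P5 as deposited, beside 6.86% of all tested genes, and not with either scaling. The neural cadherin gene Cdh2 was at 0.57, 0.28 and 2.02 FPKM, lowest where Vim was lowest and highest where Vim was highest. It was 3.54-fold higher in Lef1 P5 than in vector P2 (2.23 to 5.82) and 7.21-fold higher than in Lef1 P2 (3.93 to 14.5), on 12 to 87 reads per library. Being under 3 FPKM throughout it was not called, and with CPM it was called higher in Lef1 P5 in both comparisons. With CPM, Mmp2 and Col1a1 were called lower in Lef1 P5 than in vector P2, the reverse of the direction of Vim. Tagln (2.55, 0.64 and 2.29 FPKM) was then called lower in Lef1 P2 than in vector P2. It was called higher in Lef1 P5 than in Lef1 P2. The fibronectin gene Fn1 was at 166, 175 and 87.5 FPKM, lowest where Vim was highest, and was not called.

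**Figure D4:**
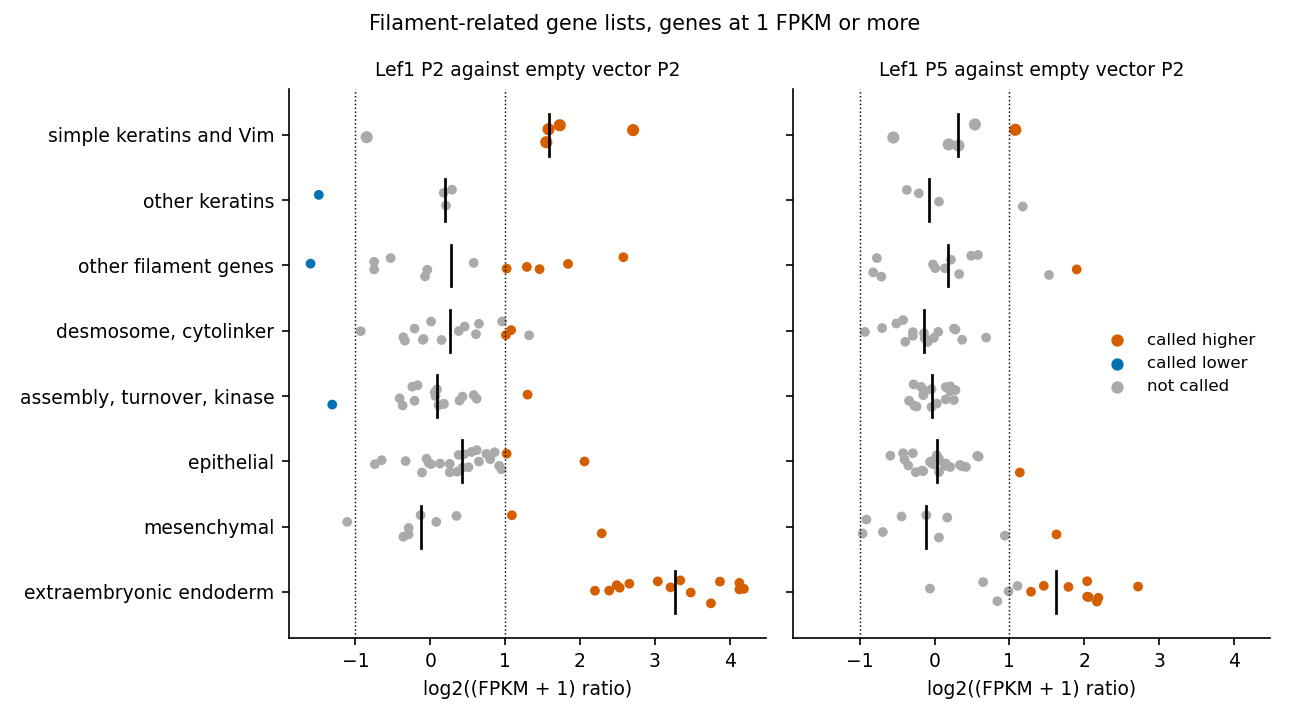
Log2 ratio of FPKM + 1 in Lef1 P2 (left) and Lef1 P5 (right) against the shared vector P2 library, with 1 point per gene at 1 FPKM or more, black bars for each list's median and dotted lines at the threshold. The median of the 5 genes is 1.58 on the left and 0.32 on the right. Points are coloured by call, and 14 of 14 extraembryonic endoderm markers are called on the left and 9 of 14 on the right.

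The 3 genes most like each of the 5 were found by the Euclidean distance between their log2 ratios of both Lef1 libraries to vector P2, which covers 3 libraries, among 10742 genes with at least 3 FPKM in some library. Nearest to Krt8 were the chromatin remodeller gene Smarca2 (0.32, 7.55 and 1.60 FPKM), the fibrillar collagen gene Col11a1 (1.15, 12.8 and 3.92 FPKM) and Oplah, at distances of 0.105, 0.114 and 0.154. Nearest to Krt18 were the cytokine receptor gene Ltbr (1.48, 6.28 and 1.87 FPKM), Hopx (7.14, 23.6 and 8.16 FPKM) and Arfgap1, at 0.025, 0.045 and 0.046. Krt19 was next to Timd2, Gm3020 and the growth factor gene Bmp2 (0.22, 3.05 and 0.48 FPKM), and Krt7 to the kinase gene Wnk2 (1.55, 6.51 and 0.78 FPKM), the lysosomal protease gene Ctsh and Col20a1. Nearest to Vim were Rpl30, AA465934 and Olfr856-ps1, at distances of 0.026, 0.060 and 0.069. Rpl30, Olfr856-ps1 and Gm3020 had fractional counts and so uncertain levels. The ratios are on the FPKM + 1 scale, which shrinks the folds of genes near 0 FPKM. Smarca2, Timd2 and Bmp2 had 17, 11 and 7 reads in vector P2 (0.32, 0.38 and 0.22 FPKM). A small distance therefore does not mean a like fold for such genes. Among the 5 genes themselves Krt18 and Krt19 were the closest, at a distance of 0.219.

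The pattern of calls of Krt7, Krt18 and Krt19, higher in Lef1 P2 than in both other libraries with no call between those, was shared by 371 of 10743 genes (3.45%). Krt8 was called higher in both Lef1 libraries and lower in Lef1 P5 than in Lef1 P2, as were 29 genes in all (0.270%). Vim, called between the Lef1 libraries alone and higher in Lef1 P5, was 1 of 92 such genes (0.856%).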

How the data were processed

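The genes and lists were chosen with earlier results of these data known. Per the file headers, the authors deposited 1 table per library with expected counts (estimated counts, which need not be whole) and FPKM values. The submitters' processing notes name Bowtie 0.12.2 and the build mm8. For the counting program and the strand setting, nothing is given in the sources used here. The deposited FPKM values equalled library-scaled expected counts per kilobase after about 54, 59 and 50 bases were taken off each length (vector P2, Lef1 P2, Lef1 P5; within 1% for 97.9% to 99.0% of genes at 10 FPKM or more).

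A missing gene was taken as 0. Symbols came from RefSeq (GRCm38) through Entrez numbers, with 17951 of 17997 matched, and no coordinates were carried over to mm8. Calls used a pseudocount of 1 FPKM, a 2-fold threshold and the minimum levels of 3 FPKM and 20 reads. With n = 1 library per group no test was made. At this depth 3 reads on 1 kilobase amount to 0.320 to 0.327 FPKM. Genes named were the 5, Lef1, defining markers, up to 4 called members per list with the largest ratios and the 3 nearest genes. Others, such as Krt17, Eif4b, Plec, Cdh1, Epcam, Cdh2, Fn1, Rsu1, Dnajb6, Dsc2, Evpl, Itgb4 and the lamins, were chosen after their values were seen. Alternatives were pseudocounts of 0.1 and 5 FPKM, minimum levels of none and 10 FPKM, thresholds of 1.5-fold and 4-fold, median-of-ratios and TMM scaling (edgeR 4.0.16, R 4.3.3) and CPM from the counts. Analyses ran in Python 3.11.15 with scipy 1.17.1.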

Additional observations from a re-analysis of the deposited data

Results flagged for a closer look

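Among the genes named, those listed here moved one way from vector P2 to Lef1 P2 and the other way to Lef1 P5, with counting intervals of both folds clear of 1. The difference was not tested, since each group has 1 library and both ratios share the empty-vector library. Vim had log2 ratios of -0.85 and 0.54, a difference of -1.39. Of the other filament genes, Nefh differed by -1.08 (-0.75 and 0.33), Lmnb2 by -0.89 and Lmnb1 by -0.76 in the direction of Vim. Des had 1.46 and -0.77, a difference of 2.23 the other way. Of the desmosome and cytolinker genes, Dsp differed by 1.08 (0.38 and -0.70), Evpl by 1.04 (0.65 and -0.39) and Itgb4 by 0.90 (0.61 and -0.29). Cldn7 had 1.02 and -0.42, a difference of 1.44. Grhl2 had -0.65 and 0.57, a difference of -1.21, at 5.66, 3.25 and 8.86 FPKM. Dnajb6 differed by -0.62 (-0.41 and 0.21) and Fn1 by 0.99 (0.08 and -0.91). Both ratios of Fn1 lay below the medians of all genes (0.11 and -0.02), so relative to these its direction did not change. The genes named for their likeness to Krt7 (Wnk2 2.08, Ctsh 2.19, Col20a1 2.20) and to Vim (Rpl30 -1.37, Olfr856-ps1 -1.48) also met this, and were chosen on these same ratios.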

How the results depend on the processing

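Each log2 ratio of the 5 genes kept its sign in the 3 comparisons under both other pseudocounts, median-of-ratios and TMM scaling and CPM (75 of 75 values), and 9 of the 75 moved by more than the counting interval. Of the 5 genes, 4, 1 and 5 were called in the comparisons of Lef1 P2 with vector P2, Lef1 P5 with vector P2 and Lef1 P5 with Lef1 P2. With a 4-fold threshold these were 1 (Krt8), 0 and 1 (Krt7), and with a pseudocount of 5 FPKM the second was 0. Over all genes 885, 272 and 926 were called in the same order. The counts were 328, 67 and 281 with a pseudocount of 5 FPKM, 478, 116 and 503 with a minimum of 10 FPKM, 1506, 545 and 1547 with CPM, 2719, 1038 and 2961 with a 1.5-fold threshold and 115, 24 and 47 with a 4-fold threshold. A pseudocount of 0.1 FPKM gave 414 in the second. No paired analysis was possible because each group has 1 library. With 1 library per group no library could be left out, and the depth limits Krt7 most, with 12 to 99 reads per library.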
